A study of Mus musculus with 15 samples.

Results

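The comparison described here set CD11b-low alveolar macrophages of 4-week-old Cybb-knockout mice against those of 4-week-old wild-type mice. It held 6 of the 15 RNA-seq libraries of the series, 3 from each genotype, and the libraries were chosen by their labels for genotype, age and CD11b gate. The knockout, labelled as a chronic granulomatous disease (CGD) model lacking CYBB, and the wild type were both on the C57BL/6 strain, and both were labelled naive, that is, untreated. Cells came from bronchoalveolar lavage and were sorted as CD45+ Ly6G- SiglecF+ CD11c+ with low CD11b, and the labels call the material pooled lavage cells. Each library was made from about 50000 cells pooled from 2 to 3 mice of one group, and the labels describe the 3 replicates as independent. The other 9 libraries were CD11b-low cells of 12-week-old wild-type and knockout mice and CD11b-high cells of 12-week-old knockout mice. The labels do not say which part of Cybb was removed, and they do not say how many animals of each sex entered a pool.

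Cybb encodes the membrane-bound catalytic subunit of the phagocyte NADPH oxidase (NOX2), which passes electrons from NADPH across the membrane to oxygen and so makes superoxide. The subunit is stable only with its partner p22phox, the product of Cyba, and the enzyme becomes active when cytosolic subunits, among them those encoded by Ncf1 and Ncf4, and a Rac GTPase join it. Alveolar macrophages are the resident phagocytes of the air spaces. They depend on GM-CSF and the transcription factor encoded by Pparg, and they clear surfactant, dying cells and inhaled particles.

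The 6 libraries held between 26202811 and 36458893 counts, within the series' range of 22856331 to 36458893. Levels are given as CPM (counts scaled to a common library size of 1e6) after TMM scaling, which corrects library totals for differences in composition. The genes detected numbered 16555 to 17248 in knockout and 16332 to 16922 in wild-type libraries (exact permutation test, two-sided, p = 0.5). The mitochondrial share of counts was 0.773% to 0.945% in knockout and 0.738% to 1.17% in wild type (exact permutation test, p = 0.8). An exact test of 3 against 3 libraries cannot go below p = 0.1. Across the 6546 genes with a mean of at least 10 CPM, the median SD of log2 CPM between replicates was 0.12 in the knockout and 0.18 in the wild type at 4 weeks, against 0.31 and 0.45 in the CD11b-low groups at 12 weeks. Wild-type replicate 3 stood furthest apart, with correlations across genes of 0.960 and 0.965 with the other wild-type libraries. Xist, transcribed from the inactive X chromosome, was at 12.8 CPM in knockout replicate 1, 13.9 CPM in wild-type replicate 1 and 33.0 CPM in wild-type replicate 3, and was at most 0.103 CPM in the other 3 libraries. The Y-linked Ddx3y was at 0.363 CPM in wild-type replicate 3 and between 41.4 and 75.9 CPM in the other 5, so the pools differed in sex. The sexes were not balanced between genotypes, since more wild-type than knockout pools held Xist and only a wild-type pool nearly lacked Ddx3y. Whether this played a part in any result below was not tested.

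The sorted cells carried the markers of their label in both genotypes. Itgax, which encodes CD11c, was at 323, 388 and 383 CPM in knockout replicates 1 to 3 and at 366, 310 and 308 CPM in wild type. Siglecf was at 232 to 324 CPM in the knockout and 262 to 317 CPM in the wild type, and Ptprc, which encodes CD45, was at 728 to 924 CPM and 729 to 837 CPM. The transcript of Itgam, which encodes the CD11b used for the gate, was low in both groups, at 1.24 to 1.99 CPM in the knockout and 0.925 to 2.09 CPM in the wild type, and Ly6g had no count in any of the 6 libraries. Of 28 alveolar macrophage identity genes, all were tested, and their summed level was 72040 to 75810 CPM of the library total (without TMM scaling, as for all summed levels here) in the knockout and 71680 to 78330 CPM in the wild type. Pparg was at 358, 415 and 393 CPM in the knockout and 302, 289 and 330 CPM in the wild type, with no overlap but no change past the threshold (log2 fold change 0.34, edgeR adjusted p = 1).

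Cybb transcript fell in the knockout, and no other gene of the oxidase passed the test. Cybb lies on the X chromosome at chrX:9435252-9487771, minus strand (GRCm38). Its level was 184, 208 and 221 CPM in knockout replicates 1 to 3 and 1531, 1534 and 2319 CPM in wild-type replicates 1 to 3. The groups were far apart, and the knockout still held 6991 to 9223 reads per library. The fall was 8.79-fold (log2 fold change -3.14 ± 0.25, SE, edgeR adjusted p = 6.6e-06), and it passed the threshold when any 1 of the 6 libraries was left out. The highest wild-type value was in replicate 3, the library with the highest Xist.

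The partners of the missing subunit overlapped between genotypes. Cyba was at 1608, 1471 and 1555 CPM in the knockout and 1974, 1938 and 1409 CPM in the wild type (log2 fold change -0.20). Of the cytosolic subunits, Ncf1 had a log2 fold change of 0.05 and Ncf4 of -0.03, and for the Rac GTPases Rac1 had -0.01 and Rac2 0.05; the direction of Ncf1, Ncf4, Rac1 and Rac2 turned in some of the alternative analyses. Cybc1, a chaperone of the oxidase complex, and Hvcn1, the voltage-gated proton channel that balances its charge, gave -0.15 and 0.10. Of the 9 oxidase genes, 1 was called lower and 8 were not called, each of these with an adjusted p of 1. The 34 tested genes within 2 Mb of Cybb held no call, and their median log2 fold change was 0.06 against -0.01 over all tested genes.

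Across 13284 tested genes, 13 passed an adjusted p of 0.05, which is 0.0979% of genes. Of these, 2 were higher in the knockout (0.0151%) and 11 were lower (0.0828%). In the same fit the 12-week comparison of CD11b-low cells gave 412 genes (3.1%), 346 higher (2.6%) and 66 lower (0.497%). In this edgeR fit 199 genes (1.5%) had an unadjusted p under 0.05 at 4 weeks, where a uniform spread of p-values would give 664. On the same genes DESeq2 gave 243 and limma voom with library weights gave 1468. Whether the number lay under 664 thus depended on the tool. At 4 weeks the 3 knockout libraries lay wholly above the 3 wild-type libraries for 520 genes (3.91%) and wholly below for 627 (4.72%). With DESeq2, 24 genes passed, with limma voom 19, and 4 passed when the spread was estimated from the 6 libraries alone.

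Apart from Cybb, the genes that fell were genes of the red cell lineage. Haemoglobin is assembled from alpha-like and beta-like globin chains and haem, and its messenger RNAs persist in reticulocytes after the nucleus is lost. The list of erythroid genes held 40 members, of which 24 were tested. Of these 24, 10 were called lower and none higher, set against 0.0828% called lower among all tested genes, and 19 had all 3 knockout libraries below all 3 wild-type libraries, against 4.72% of all tested genes. The median log2 fold change of the tested members was -4.09, against -0.01 over all tested genes. The other 16 members were not tested. The filter on low counts can keep a gene that is high in wild type alone, so these values describe the tested members only. The list was chosen with earlier results of these data known.

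The promoters of 2 of these genes are shown as an example that holds the motifs of both erythroid regulators GATA1 and KLF1 (Alas2) and one that holds the KLF1 motif alone (Tspo2). The motif GATAA and the motif CACCC were searched on both strands in the 250 bases before the annotated start of each gene, in the RefSeq promoter table (GRCm38.p6). Capitals mark matches to either motif or its reverse complement, and the 200 bases next to the start are printed, 5′ to 3′ on the strand of the gene.
Alas2, chrX:150547217-150547416, plus strand: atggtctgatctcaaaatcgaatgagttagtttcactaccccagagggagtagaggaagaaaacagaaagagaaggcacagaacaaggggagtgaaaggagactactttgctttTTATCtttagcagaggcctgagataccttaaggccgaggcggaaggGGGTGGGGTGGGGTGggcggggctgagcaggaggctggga
Tspo2, chr17:48451502-48451701, minus strand: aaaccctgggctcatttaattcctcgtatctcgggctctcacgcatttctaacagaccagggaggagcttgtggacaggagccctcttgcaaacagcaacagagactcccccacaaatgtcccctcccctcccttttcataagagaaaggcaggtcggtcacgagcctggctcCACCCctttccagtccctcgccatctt
The Alas2 stretch holds 1 GATAA and 3 CACCC matches that follow each other directly, all read on the opposite strand, and the Tspo2 stretch holds 1 CACCC match and no GATAA. Of 9 called red cell genes named here, 8 have a promoter in the table, and 5 of the 8 hold both motifs. These 5 are Alas2 and the globin genes Hba-a1, Hba-a2, Hbb-bs and Hbb-bt. The globins are pairs of duplicated genes, so the 5 are not independent cases. Among all 32851 promoters 22.6% hold GATAA, 52.0% hold CACCC and 10.1% hold both. These matches describe the sequence only, and binding was not measured.

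The 4 adult globin genes had the highest levels of the group. Hbb-bs, a beta-globin gene, was at 74.3, 81.4 and 22.6 CPM in knockout replicates 1 to 3 and at 1041, 3914 and 845 CPM in wild-type replicates 1 to 3. Every knockout library was at least 10 times lower than every wild-type library, wild-type replicate 2 was the highest and knockout replicate 3 the lowest. Hbb-bs fell by 5.02 ± 0.72 (SE) on the log2 scale, and the adjusted p was 0.00636. Hba-a1, an alpha-globin gene, was at 23.8, 22.6 and 7.80 CPM in the knockout and 366, 1115 and 290 CPM in the wild type, with the same libraries at the extremes. It fell by 5.03 ± 0.64 on the log2 scale (adjusted p = 0.00199).

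The other copy of each pair, Hbb-bt and Hba-a2, fell by 5.22 and 5.01 on the log2 scale (adjusted p = 0.00636 and 0.00184). The copies of a pair are nearly identical in sequence, so the split of reads between them is uncertain. Summed over both copies, the alpha-globin genes were at 31.6 ± 15.4 CPM in the knockout and 1029 ± 801 CPM in the wild type (SD, n = 3), and the beta-globin genes were at 72.9 ± 38.8 CPM and 2435 ± 2195 CPM. The ratio of these means was 32.5 for alpha and 33.4 for beta, and without wild-type replicate 2 it was 17.95 and 16.04.

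The called genes for haem synthesis and red cell metabolism were also highest in wild-type replicate 2 and lowest in knockout replicate 3. Alas2, the erythroid form of the first enzyme of haem synthesis, was at 11.3, 10.6 and 3.52 CPM in the knockout and 153, 553 and 107 CPM in the wild type, and it fell by 4.997 ± 0.68 on the log2 scale (adjusted p = 0.00455). Bpgm, which makes the bisphosphoglycerate that lowers the oxygen affinity of haemoglobin, was at 17.8, 18.2 and 15.05 CPM in the knockout and 56.4, 216 and 39.5 CPM in the wild type. It had the smallest fall of the called red cell genes, 6.11-fold (log2 fold change -2.61, adjusted p = 0.0349). Without wild-type replicate 2 its log2 fold change was -1.50 and the call was lost (adjusted p = 0.108). Car2, a cytosolic carbonic anhydrase that alveolar macrophages also express and that stands on the list of their identity genes, was at 0.500, 0.564 and 0.431 CPM in the knockout and 7.32, 81.2 and 5.14 CPM in the wild type. The spread of Car2 in wild type was carried by replicate 2, and its fall of 5.96 on the log2 scale (adjusted p = 0.0217) was 3.64 without that library (adjusted p = 0.00536).

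Tent5c, a poly(A) polymerase of late red cell precursors and plasma cells, was at 1.84, 1.02 and 2.01 CPM in the knockout and 9.46, 37.002 and 7.74 CPM in the wild type. It fell by 3.47 ± 0.58 on the log2 scale (adjusted p = 0.0211), and the call was lost without wild-type replicate 2 (log2 fold change -2.40, adjusted p = 0.108). Tspo2, a membrane protein of maturing red cells, had 2 reads in all knockout libraries together and 142 in the wild type. After scaling to library size the wild type was 81.8 times higher, with an exact 95% counting interval of 22.2 to 682 that covers counting error only (edgeR log2 fold change -6.16, adjusted p = 0.0368). Without wild-type replicate 2 the log2 fold change of Tspo2 was -4.60 and the call was lost (adjusted p = 0.825). Both genes were again highest in wild-type replicate 2, and their groups did not overlap.

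Slc4a1, the anion exchanger of the red cell membrane, lay in the same direction without passing the threshold, at 0.158, 0.113 and 0 CPM in the knockout and 1.96, 8.55 and 0.514 CPM in the wild type (adjusted p = 0.0988). Its groups did not overlap. The mitochondrial iron importer Slc25a37, which many cell types use, was at 8.47, 10.01 and 7.94 CPM in the knockout and 10.05, 33.4 and 11.8 CPM in the wild type (adjusted p = 1). Early regulators of the lineage were near or at 0: Gata1 had at most 0.0343 CPM and Klf1 at most 0.378 CPM in any of the 6 libraries, and both were too low to test. Epor, the erythropoietin receptor, overlapped between the groups at 1.63 to 2.00 CPM and 0.423 to 2.72 CPM. Car1, Icam4 and Xk had no read in any of the 6 libraries.

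**Figure D1:**
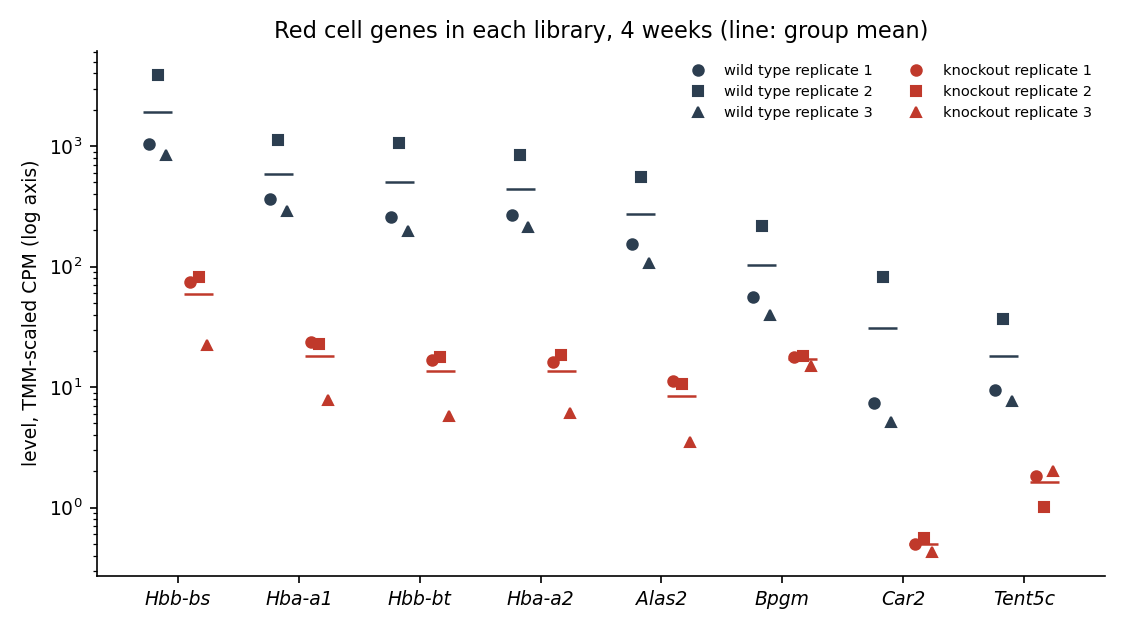
The level of 8 called red cell genes (TMM-scaled CPM, log axis) is plotted for each of the 6 libraries at 4 weeks; circles, squares and triangles are replicates 1, 2 and 3, and lines are group means. Every wild-type library lies above every knockout library for each gene, and wild-type replicate 2 is the highest throughout.

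The summed level of the erythroid list was 496, 463 and 365 CPM in knockout replicates 1 to 3 and 2772, 9335 and 2196 CPM in wild-type replicates 1 to 3 (exact permutation test, p = 0.1, the smallest possible). The wild-type mean was 10.8 times the knockout mean, and 5.63 times without wild-type replicate 2. At 12 weeks the sum was 1615, 787 and 1018 CPM in wild-type CD11b-low libraries and 361 to 399 CPM in knockout CD11b-low libraries. The globins were also called lower in the knockout at 12 weeks, where Hbb-bs fell by 3.15 on the log2 scale (adjusted p = 0.015) in libraries that the 4-week comparison did not use. The interaction of genotype and age was not called for Hbb-bs (adjusted p = 0.59). Of the 24 tested erythroid genes, 4 were called lower at 12 weeks, against 10 at 4 weeks. The share of all tested genes called lower at 12 weeks was 0.497%. The list's median log2 fold change was -0.46 at 12 weeks, against -4.09 at 4 weeks. Tent5c went the other way at 12 weeks (log2 fold change 1.35), and its interaction was called (edgeR adjusted p = 0.0177). Mature red cells lack the CD45, SiglecF and CD11c that the sort required, and how these transcripts came to be in the libraries was not tested. In bulk libraries, fewer red cells among the sorted cells and less RNA per cell cannot be told apart.

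Platelet genes were low in both groups. Of 15 platelet and megakaryocyte markers 11 were too low to test, the defining Itgb3, Gp1bb, Gp6, Tubb1 and Selp had no read in any of the 6 libraries, and the summed level was 20.1 to 27.6 CPM in the knockout and 9.98 to 25.3 CPM in the wild type. The calls rested on the replicates to different degrees. Of the 10 erythroid calls, 4 were made without knockout replicate 1, 2 without replicate 2 and 5 without replicate 3, while 11, 7 and 12 were made without wild-type replicates 1, 2 and 3. None was made when the 6 libraries alone set the spread, with 469 genes at an unadjusted p under 0.05 in that fit, and DESeq2 on the same genes called 12.

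Both genes that rose had few reads in the knockout and almost none in the wild type. Dscaml1, a neural cell adhesion molecule of the immunoglobulin superfamily, was at 1.45, 1.64 and 1.41 CPM in the knockout, and in the wild type 1 read was found in replicate 2 and none in the others. With 172 reads against 1, its level was 149 times higher, with an exact 95% counting interval of 26.4 to 5930 (edgeR adjusted p = 0.000313). At 12 weeks it was at 1.49, 1.22 and 2.58 CPM in knockout CD11b-low cells and at 0.0318 to 0.0805 CPM in wild type, and it was called again (adjusted p = 0.000235). The groups were separate at both ages, and the call at 4 weeks held without any 1 library.

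Evx2, a homeobox gene beside the Hoxd cluster, was at 0.474, 0.592 and 0.765 CPM in the knockout, from 18, 21 and 32 reads. No read was found in any of the wild-type libraries of 4 or 12 weeks. Taking 3 reads in each wild-type library as the floor, Evx2 was at least 6.71-fold higher in the knockout (adjusted p = 0.0211). The knockout at 12 weeks had 0.275, 0.537 and 0.848 CPM, with no overlap again. The 4-week adjusted p was 0.0501 to 0.108 when 1 library was left out, so the call was lost without any 1 of the 6. The strand setting of the counting is not given in the sources used here, so reads from overlapping antisense transcripts cannot be told apart in either gene.

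Among genes at 10 CPM or more that were higher in the knockout without passing the adjusted threshold, the leading one was Fstl1. It encodes a secreted glycoprotein related to follistatin. Fstl1 was at 11.1, 24.96 and 6.67 CPM in knockout replicates 1 to 3 and at 3.65, 4.08 and 3.84 CPM in wild type. The wild-type libraries were nearly equal, and all knockout libraries lay above them by unequal amounts. The log2 fold change was 1.88 ± 0.43 (SE; unadjusted p = 0.000392, adjusted p = 0.254). At 12 weeks Fstl1 was at 560, 187 and 395 CPM in knockout CD11b-low cells and 3.97 to 4.49 CPM in wild type.

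H2-M2, a nonclassical class I gene of the major histocompatibility complex, and Anpep, the surface peptidase CD13, were chosen for description after their values were seen. H2-M2 was at 8.71, 7.16 and 3.68 CPM in the knockout and 0.846, 0.927 and 1.12 CPM in the wild type (log2 fold change 2.75 ± 0.59, adjusted p = 0.185), and it was called when the 6 libraries alone set the spread (adjusted p = 0.0222). Anpep was at 5.21, 6.15 and 5.09 CPM in the knockout and 1.96, 2.09 and 3.14 CPM in the wild type (log2 fold change 1.19 ± 0.26, adjusted p = 0.185). Neither gene overlapped between genotypes. Fstl1, H2-M2 and Anpep were among the 11 genes that DESeq2 called beyond those of edgeR.

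The other genes of this rank were Mb21d2, Cxcr1, Nr1d1, Wdfy1, Slpi, Myo5a, Il1a, Gdpd1 and Ice1, with log2 fold changes from 0.62 to 1.72 and an adjusted p of 1 each. Cxcr1, a chemokine receptor best known from neutrophils, was at 15.1, 32.0 and 14.4 CPM in the knockout and 9.30, 7.93 and 7.14 CPM in the wild type. Slpi, a secreted inhibitor of neutrophil elastase, was the most abundant of them, at 701, 809 and 758 CPM against 402, 422 and 393 CPM. Its groups were tight and apart (log2 fold change 0.90), and it was called when the 6 libraries alone set the spread (adjusted p = 0.00848). At 12 weeks the groups overlapped: knockout CD11b-low libraries held 1450 to 3902 CPM and wild-type libraries 1645 to 3238 CPM. Il1a, the cytokine interleukin-1 alpha, was at 63.2, 88.8 and 61.7 CPM in the knockout and 46.0, 50.6 and 30.4 CPM in the wild type. Nr1d1, a repressor of the circadian clock, was at 23.0, 34.6 and 34.2 CPM against 12.5, 12.2 and 15.6 CPM. The hour at which cells were collected is not stated in the labels.

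**Figure D2:**
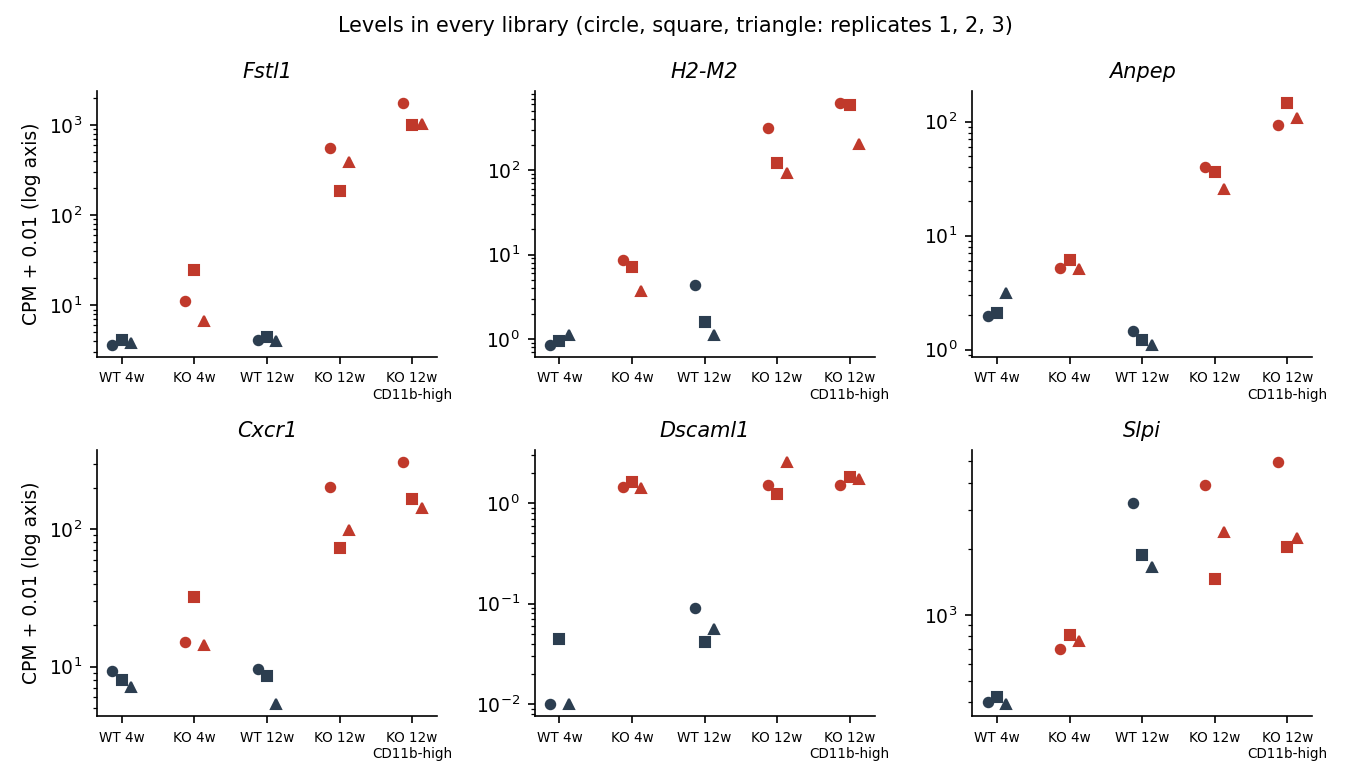
The level of 6 genes that were higher in the 4-week knockout (CPM plus 0.01, log axis) is plotted in all 15 libraries, with wild type (WT) dark and knockout (KO) red and the age in weeks (w) under each group. Fstl1, H2-M2, Anpep and Cxcr1 are higher in the knockout at 4 weeks without an edgeR call, and their difference is larger at 12 weeks. The interaction of genotype and age was called for Fstl1 and Anpep. It was not called for H2-M2 and Cxcr1 (edgeR adjusted p = 0.099 and 0.058). Dscaml1 is at a like level in all knockout groups, and Slpi overlaps between genotypes at 12 weeks.

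The genes of the 12-week comparison were looked up at 4 weeks, and the 2 comparisons share no library. Of the 346 genes called higher in the knockout at 12 weeks, 43 (12.4%) had all 3 knockout libraries above all 3 wild-type libraries at 4 weeks, against 3.91% of all tested genes, and 17 (4.91%) had them all below, against 4.72%. Their 4-week log2 fold change was above 0 for 206 (59.5%), against 47.9% of all tested genes, and the median was 0.07 at 4 weeks and 2.37 at 12 weeks. Only Dscaml1 and Evx2 of the 346 were called at 4 weeks.

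Of the 43 separated genes, 4 are given here that were chosen after their values were seen. Ptafr, the receptor for platelet-activating factor, was at 24.2, 23.5 and 16.2 CPM in the 4-week knockout and 10.5, 13.5 and 14.9 CPM in the wild type, and at 12 weeks its log2 fold change was 3.87. Ptgir, the prostacyclin receptor, was at 35.6, 63.2 and 29.9 CPM against 25.5, 29.1 and 18.1 CPM at 4 weeks, and its log2 fold change at 12 weeks was 3.29. Tnip3, a binding partner of the NF-kappaB inhibitor A20, was at 3.11, 2.03 and 0.933 CPM against 0.608, 0.858 and 0.423 CPM. Dcstamp, needed for the fusion of macrophages, was at 0.605, 0.395 and 0.454 CPM against 0.0529, 0.0343 and 0.272 CPM. For each of these 4 the groups were apart and the adjusted p at 4 weeks was 0.947 or 1.

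For other genes called at 12 weeks the 4-week groups overlapped or nearly touched. Mfge8, a bridge between dying cells and phagocytes, was at 35.2, 48.7 and 32.4 CPM in the 4-week knockout and 27.1, 23.8 and 40.8 CPM in the wild type, and at 12 weeks it was at 345 to 1459 CPM and 12.0 to 33.7 CPM. Ctsk, a cathepsin, was at 837, 1130 and 805 CPM against 710, 804 and 487 CPM at 4 weeks, with the lowest knockout value just above the highest wild-type value, and its log2 fold change was 0.47 at 4 weeks and 2.27 at 12 weeks. The chemokine gene Ccl9 was at 65.3, 102 and 44.1 CPM against 35.0, 35.0 and 44.7 CPM, so that knockout replicate 3 overlapped the wild type.

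A test of the difference between the ages called 33 genes (0.248%), all with a larger knockout effect at 12 weeks, and 31 of them were among the 346. For 19 of the 33 the 4-week log2 fold change was below 0. Cd200, a surface ligand that restrains macrophages, was at 15.4, 27.7 and 16.0 CPM in the 4-week knockout and 44.3, 52.5 and 56.9 CPM in the wild type, and at 73.1 to 120 CPM and 18.3 to 51.3 CPM at 12 weeks. The groups were apart at both ages and in opposite directions, with log2 fold changes of -1.38 and 1.68 and an adjusted p of the interaction of 0.0177, while the 4-week difference alone had an adjusted p of 0.572. The count of 33 fell to 3 without knockout replicate 3 of 4 weeks and to 13 without wild-type replicate 2.

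Of the 66 genes called lower at 12 weeks, 14 (21.2%) had all 3 knockout libraries below all 3 wild-type libraries at 4 weeks, against 4.72% of all tested genes, and none had them all above. The 5 that were called at 4 weeks were Cybb and the 4 globins. The median 4-week log2 fold change of the 66 was -0.10. Fabp1, a fatty acid binding protein of alveolar macrophages, was called lower at 12 weeks (log2 fold change -1.47) and was at 1738, 1267 and 1174 CPM in the 4-week knockout and 1153, 1088 and 1360 CPM in the wild type. Inka1 was at 13.2, 12.5 and 13.4 CPM at 4 weeks against 15.3, 14.8 and 16.2 CPM, a narrow but complete separation (log2 fold change -0.24), and its log2 fold change at 12 weeks was -2.37.

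**Figure D3:**
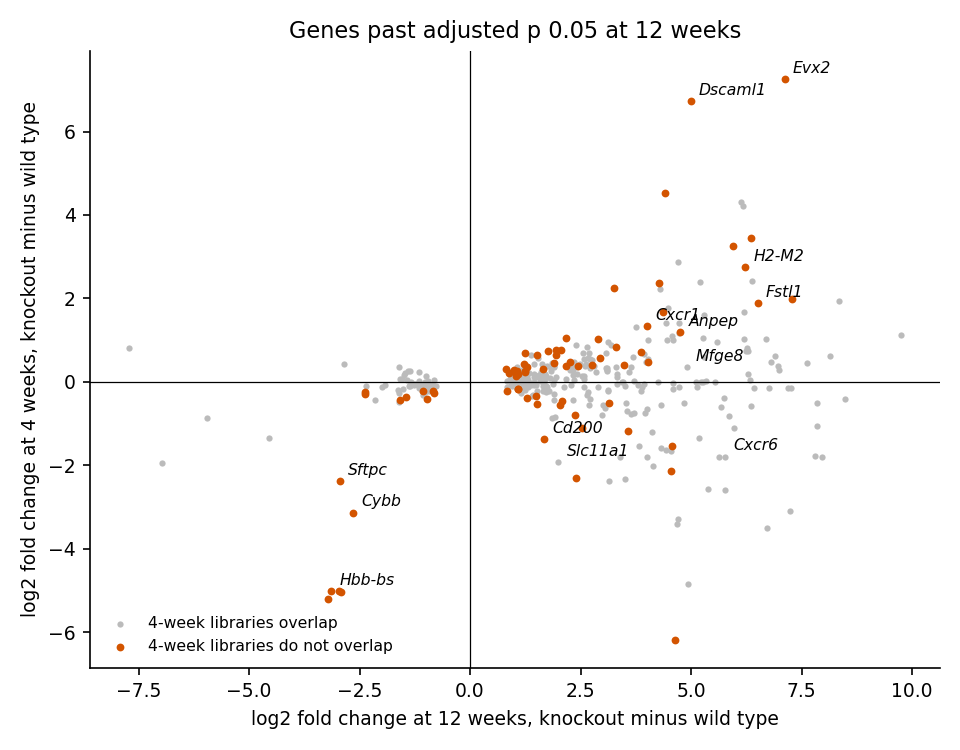
Each point is a gene past an adjusted p of 0.05 at 12 weeks, with its log2 fold change (knockout minus wild type) at 12 weeks on the horizontal axis and at 4 weeks on the vertical axis; orange points are genes whose 3 and 3 libraries do not overlap at 4 weeks. Most of the 346 genes to the right of 0 lie near 0 on the 4-week axis, while Cybb and the globins are low at both ages.

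Gene lists for macrophage functions held no call at 4 weeks. Among 27 NF-kappaB targets, 39 interferon response genes, 29 cytokines and chemokines, 41 lysosomal genes, 20 lipid-associated macrophage genes, 22 genes of apoptotic cell clearance, 43 cell cycle genes and 44 oxidative phosphorylation genes, none passed the adjusted threshold, with the median log2 fold change of each list between -0.05 and 0.09. The list of 28 alveolar macrophage identity genes had a median of 0.09, and Car2 was its 1 call. The 25 cholesterol biosynthesis genes had a median of -0.18 and none was called. Of the 25, 3 were above 0, against 47.9% of all tested genes, and 4 (Mvk and Sqle among them) had all knockout libraries below all wild-type libraries, against 4.72%. Their summed level overlapped, at 1723 to 1870 CPM in the knockout and 1701 to 2272 CPM in the wild type. At 12 weeks the list's median was 0.61, against -0.04 over all tested genes. Mvk, mevalonate kinase, was at 10.2, 9.59 and 12.5 CPM in the knockout and 15.1, 13.8 and 13.4 CPM in the wild type.

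Within those lists a few members had the smallest p-values. Rsad2, the interferon-induced antiviral enzyme viperin, was at 0.737, 0.818 and 1.05 CPM in the knockout and 5.52, 28.1 and 3.02 CPM in the wild type (adjusted p = 0.144). Isg20, an interferon-induced exonuclease, was at 5.79, 5.58 and 4.35 CPM against 10.9, 38.2 and 10.4 CPM (adjusted p = 0.347). Both were apart between genotypes and highest in wild-type replicate 2, the library with the highest erythroid sum (9335 CPM), and whether the 2 facts are linked was not tested. Of the 39 tested interferon response genes 21 had a log2 fold change above 0, and the list's median was 0.00. Among 30 NRF2 targets and antioxidant enzymes, Nqo1, a quinone reductase, was at 1.55, 0.564 and 0.742 CPM in the knockout and 1.67, 4.81 and 2.15 CPM in the wild type (adjusted p = 1), and the list's median was -0.09.

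Among the markers of other cell types, red cells aside, the B and plasma cell and the lung epithelial lists had the lowest medians. No member of either passed the adjusted threshold, and their sums overlapped. Medians were also below 0 for dendritic cells (-0.40), neutrophils (-0.20), monocyte-derived macrophages (-0.13), T and NK cells (-0.06) and eosinophils (-0.06). That of the platelet list was 0.27. Of 16 tested lung epithelial genes 2 had a log2 fold change above 0, and the median was -0.83; Sftpc, surfactant protein C, was at 2.32, 2.79 and 0.670 CPM in the knockout and 4.55, 5.66 and 19.7 CPM in the wild type (adjusted p = 1). Their summed level overlapped, at 1165 to 1728 and 1380 to 1699 CPM. The 9 tested B and plasma cell genes had a median of -1.47, with Ms4a1, which encodes CD20, at 0.500, 0.395 and 0.263 CPM against 1.005, 1.41 and 0.816 CPM. The summed level of that list also overlapped, at 172 to 220 and 167 to 212 CPM.

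Some monocyte and lymphocyte genes were near the limit of detection. Ly6c2 had 1 read in the knockout and 6 in the wild type, and Ccr2, the monocyte chemokine receptor, overlapped at 6.63 to 10.9 CPM and 7.11 to 13.6 CPM. The 24 monocyte-derived macrophage genes summed to 40680 to 44380 CPM in the knockout and 33450 to 41150 CPM in the wild type. The 24 T and NK cell genes summed to 957 to 1036 CPM in the knockout and 852 to 947 CPM in the wild type, without overlap (exact permutation test, p = 0.1, the smallest possible). Most of that sum was Cd2, an adhesion molecule, which overlapped at 844 to 901 CPM and 761 to 846 CPM, and the next highest, Lck, was at most 2.51 CPM in any of the 6 libraries. Cd3e, a chain of the T cell receptor complex, was at 0.0478 to 0.526 CPM and 0.0529 to 0.446 CPM. Among neutrophil genes, Ly6g, Elane, Camp and Mmp9 had no read, and the list summed to 152 to 188 and 150 to 183 CPM. The eosinophil genes Prg2, Epx, Il5ra and Prg3 also had no read in any of the 6 libraries.

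**Figure D4:**
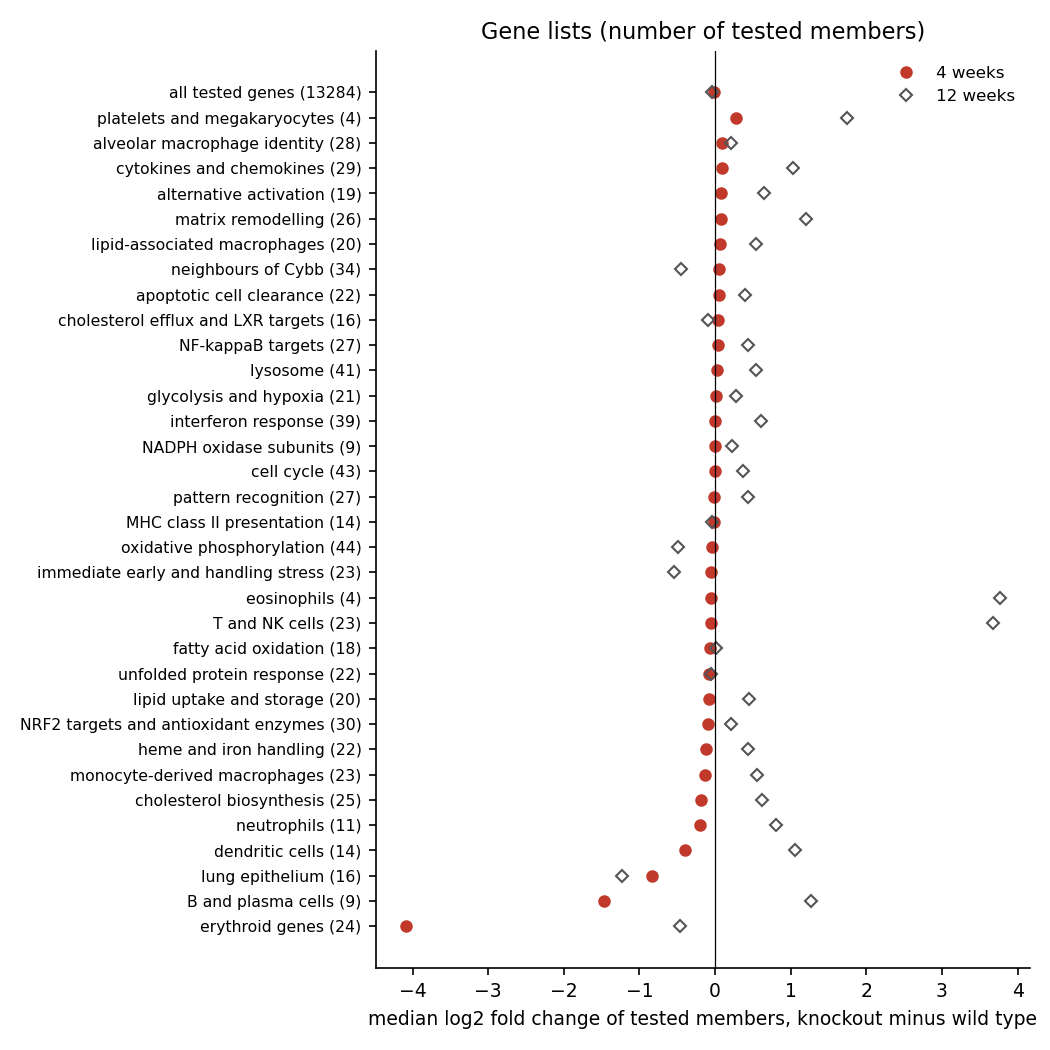
The median log2 fold change of the tested members of each gene list (knockout minus wild type) is plotted at 4 weeks (filled circles) and 12 weeks (open diamonds), with the number of tested members beside each name. At 4 weeks the erythroid list lies at -4.09, the B and plasma cell and lung epithelial lists at -1.47 and -0.83, and most others near 0.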

How the data were processed

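The authors deposited 1 table of gene counts for 15 libraries. The submitters' processing notes name STAR, Subread and featureCounts without versions, and the libraries were made with a Clontech SMARTer kit per the labels. The genome build, annotation and strand setting are not given in the sources used here. Of 40780 rows, 270 repeated a gene and were dropped, which left 40510 genes.

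Counts of all 15 libraries entered 1 fit with 1 coefficient for each of the 5 groups in edgeR 4.0.16 under R 4.3.3 (TMM scaling; filterByExpr with a minimum count of 10 and a minimum total of 15; robust quasi-likelihood test, two-sided; 10 residual degrees of freedom). Benjamini-Hochberg adjustment ran over all 13284 tested genes at 0.05. P-values measure the spread between pooled samples within groups, estimated over all 5 groups together, so those at 4 weeks rest partly on 12-week libraries. The median SD of log2 CPM was 0.12 and 0.18 in the 4-week groups and 0.29 to 0.45 in the 12-week groups. With 26202811 to 36458893 counts per library at 4 weeks, 3 reads correspond to 0.0718 to 0.103 CPM. Single values were compared by exact permutation tests over libraries. The edgeR, DESeq2 1.42.0 and limma 3.58.1 steps were tested on simulated data.

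The comparison and the gene lists were chosen with earlier results of these data known. Named genes were Cybb and the oxidase and sort genes, all genes past the adjusted threshold, the 10 largest differences each way among genes of at least 10 CPM with an unadjusted p under 0.05 and no overlap, the leading members of each list, the largest 12-week changes, and genes within 2 Mb of Cybb. Several genes covered by the lists or rules are not reported here. Gene coordinates are from GENCODE M21 (GRCm38). Alternatives were other normalization, tools, filters and library sets, a replicate block, and leaving out each 4-week library. The scaling of the summed erythroid level was added as an alternative after seeing the data.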

Additional observations from a re-analysis of the deposited data

Results flagged for a closer look

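The test of the difference between the 2 ages, 12-week effect minus 4-week effect of the knockout, picked out the following genes among those named, and each value is a log2 difference. Anpep gave 3.57, Fstl1 4.63 and Ptafr 3.15, and all 3 were higher in the knockout at both ages. Mfge8 gave 4.57, with a 4-week log2 fold change of 0.34. Cxcr6 and Cd3g, genes of T cells, gave 7.55 and 5.36, with 4-week log2 fold changes of -1.79 and -0.51. Cd200 gave 3.06 and Slc11a1, a metal ion transporter of phagosomes, gave 3.93, with 4-week log2 fold changes of -1.38 and -1.93. Tent5c gave 4.82, with log2 fold changes of -3.47 at 4 weeks and 1.35 at 12 weeks. Ctse gave 11.29, with 2 reads in all 4-week knockout libraries together, so that its value depends on the prior count. The adjusted p of these differences ran from 0.00043 (Anpep) to 0.0353 (Slc11a1). With 3 libraries in each group, single libraries were not tested as outliers.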

How the results depend on the processing

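At 4 weeks 13 genes were called. The count was 4 with the 6 libraries alone, 24 with DESeq2, 19 with limma voom and 73 with no filter on low counts. It was 4 to 15 when 1 library was left out. With the replicate block it was 13, of which 11 were shared. The 412 calls at 12 weeks became 880 with DESeq2 and 1090 with no filter. The 33 interaction calls became 151 with DESeq2, 321 with no filter and 66 with the replicate block, and 3 to 28 when 1 library was left out. The cause of these shifts was not tested. Same-numbered libraries did not deviate together in every pair (r = 0.20, -0.15 and 0.32 over 6546 genes), so the numbers were not taken as pairs. Cybb and Dscaml1 were called under all 13 alternatives tried. The summed erythroid ratio of 10.8 was 11.2 with TMM scaling and 5.63 to 13.7 when 1 library was left out.

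Directions turned only for genes near 0 or with few reads. Rac1 gave 0.0036 with the 6 libraries alone, 0.13 with limma voom and 0.0069 with no filter. With limma voom Siglecf gave 0.057 and Pdcd1 0.12, and with the replicate block Cd3e gave 0.13. When 1 library was left out, log2 fold changes ran from -0.067 to 0.20 for Ncf1, -0.063 to 0.029 for Ncf4, -0.12 to 0.20 for Rac1, -0.089 to 0.34 for Rac2, -0.20 to 0.39 for Itgam, -0.15 to 0.088 for Siglecf, -0.0021 to 1.65 for Pla2g2d, -1.21 to 0.62 for Cd3e, -1.82 to 0.18 for Pdcd1 and -0.89 to 0.18 for Cd3g. At this depth, differences in genes under about 0.1 CPM were not detectable.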

Other observations

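Plekhh2, which was not called at 4 weeks (edgeR adjusted p = 1), had the widest spread seen among the abundant genes examined. It was at 18512, 26.8 and 6895 CPM in wild-type replicates 1 to 3 and at 26.4, 578 and 20.5 CPM in knockout replicates 1 to 3 at 4 weeks. At 12 weeks it was at 10154, 22.4 and 5885 CPM in wild type and 141, 4398 and 9813 CPM in knockout CD11b-low cells. Wild-type replicate 2, the highest library for the erythroid list, was the lowest of its group for Plekhh2.

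Rpe, an enzyme of the pentose phosphate pathway, was at 16.9, 14.9 and 15.8 CPM in the 4-week knockout and 30.2, 29.9 and 50.1 CPM in the wild type. The groups did not overlap. The difference was not called by edgeR (log2 fold change -1.21, adjusted p = 0.347) and was called by DESeq2. At 12 weeks the log2 fold change was -0.27. Rpe was chosen after its values were seen.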
